A study of Mus musculus with 6 samples.

Results

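The AP-1 and immediate early factors examined here are 10 genes, Fos, Fosb, Fosl1, Fosl2, Jun, Junb, Jund, Atf3, Maff and Egr1, taken by symbol from a table of 27179 genes. RNA was sequenced from cancer-associated fibroblasts (CAFs) of 3 mammary tumors of raGFP-Wnt1 female mice, which carry the MMTV-Wnt1 transgene, driven in the mammary epithelium, and 1 copy of a Pdgfra H2B-GFP reporter that labels Pdgfra-expressing cells. From each tumor, lineage-negative GFP-positive cells were sorted into a CD34 negative and a CD34 positive fraction, so that the 3 libraries of each group carry the same alleles and differ in surface CD34. Libraries are numbered by tumor and named by fraction, as negative library 1 or positive library 1 and so on. The age of the mice was not given in the sources used here, and all cells had passed through a single-cell suspension, antibody staining and flow cytometry before RNA was extracted from frozen cells. The question is whether these genes were expressed differently by the CAFs without and with CD34 of the same tumor.

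AP-1 is a transcription factor built from a pair of basic leucine zipper proteins, typically a FOS protein (Fos, Fosb, Fosl1, Fosl2) with a JUN protein (Jun, Junb, Jund). JUN proteins can also pair with each other or with ATF proteins such as Atf3, and small Maf proteins such as Maff use the same zipper fold but lack an activation domain. Egr1 is a zinc finger factor. Most of these genes are immediate early genes: growth factors and stress induce them through MAP kinases within minutes, without new protein synthesis, and their mRNAs are short lived. In fibroblasts they are known as the classical response to serum, and they also respond to tissue dissociation, whose part in the levels below was not tested because both fractions went through it.

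Promoter sequence was searched for 8 of the 10 genes, without Fosl1 and Egr1, in RefSeq windows on GRCm38.p6 of 250 bases before to 50 bases after an annotated start. The stretches below are the 120 bases before the start of 4 of them: Fos and Jun, with the highest mean level of their families per length of transcript, Junb, which was higher in CD34 negative CAFs in each tumor, and Atf3, which was lower. Capitals mark the motif TGACG, which reads CGTCA on the opposite strand, and the motifs TGACATCA and TATAA, and each stretch is written 5′ to 3′ on the gene's own strand.

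Fos, chr12:85473770-85473889, plus strand: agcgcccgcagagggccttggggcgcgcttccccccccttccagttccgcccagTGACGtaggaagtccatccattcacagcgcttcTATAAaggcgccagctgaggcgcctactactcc

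Jun, chr4:95052223-95052342, minus strand: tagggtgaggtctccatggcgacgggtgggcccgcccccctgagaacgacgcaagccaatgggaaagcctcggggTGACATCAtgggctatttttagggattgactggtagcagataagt

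Junb, chr8:84978749-84978868, minus strand: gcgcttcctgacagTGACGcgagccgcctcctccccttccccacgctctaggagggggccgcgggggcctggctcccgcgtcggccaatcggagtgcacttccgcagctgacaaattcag

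Atf3, chr1:191183334-191183453, minus strand: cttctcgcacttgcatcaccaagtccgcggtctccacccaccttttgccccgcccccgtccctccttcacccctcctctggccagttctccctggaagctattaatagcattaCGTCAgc

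TGACG is one arm of the cyclic AMP response element TGACGTCA, which contains it, and TGACATCA is a variant of that element to which Jun and ATF proteins are known to bind. The arm began 66 bases before the start in Fos, 106 in Junb and 7 in Atf3, and TGACATCA began 45 bases before the start in Jun. Of the 8 genes, 5 held TGACG on either strand (Fos, Fosb, Junb, Atf3 and Maff), against 20.8% of 32851 windows. The whole element TGACGTCA was found in Maff, against 1.79% of windows. TGACATCA was found in Jun and Maff, against 3.62%. The consensus AP-1 element TGACTCA was in 0 of the 8 genes and in 5.2% of all windows. GCGGGGGCG, the EGR site, was in Fosb and Fosl2 and in 2.91% of windows, on either strand, and the serum response motif known as the CArG box was in 0 of the 8 genes and in 1.63% of windows. TATAA on the coding strand was found in Fos, 33 bases before the start, and in Junb at the start itself, against 17.5% of windows, and CCAAT in Jun, Junb and Atf3, against 37.4%. These are matches of letters in short windows. A gene was counted if any of its windows held the motif, and Maff had hits in different windows. The counts of genes and the shares of windows are therefore in unlike units.

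The libraries held between 16238059 and 86609267 counts, and each had counts for 14314 to 19220 genes. Negative library 3 stood apart: it lacked any count for 159 genes that averaged at least 2 CPM elsewhere (CPM, the count relative to the size of its library), against 1 to 31 such genes in each of the others. Fibroblast markers fitted the label in every library, with a summed level of 69861 to 96012 CPM over 8 markers and Pdgfra at 302 to 506 CPM. Summed levels were 13.4 to 140 CPM for 6 epithelial markers, 6.09 to 28.5 CPM for 6 endothelial markers and 7.57 to 19.7 CPM for 8 blood cell markers, with overlapping ranges in both groups. The epithelial sum was the higher one in the negative library of each tumor (140 against 129, 125 against 81.2 and 49.7 against 13.4 CPM). With the tumor as a block, 0 of these 6 markers passed in limma-voom, 0 in edgeR and 1 in DESeq2. In that limma-voom fit, 3 of the 6 had an unadjusted p under 0.05, as did 3460 of all 14855 tested genes. Of the endothelial and blood cell markers, Cdh5, Emcn, Tie1, Cd68, Itgam and Ptprc were at 0 in at least 1 library. Pericyte markers were higher in CD34 negative CAFs: 6 markers summed to 199, 240 and 230 CPM in the negative and 181, 81.7 and 92.8 CPM in the positive libraries, and none was at 0. With the tumor as a block in limma-voom, 4 of them were higher (Notch3, Mcam, Cspg4 and Des) and 1 lower (Abcc9). Of the 8 fibroblast markers, the same fit called 1 higher (Pdgfrb) and 2 lower (Dcn and Lum) in CD34 negative CAFs. It called 8.57% of all tested genes. The part of the fibroblast, epithelial and pericyte marker differences in the results below was not tested.

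The AP-1 genes were among the most abundant mRNAs of both fractions. The 10 genes took 2.58%, 1.77% and 2.11% of the counts of negative libraries 1, 2 and 3 and 2.42%, 1.5% and 2.09% of those of the positive libraries. Between 3 and 6 of them stood among the 100 highest genes of a library on a per-length scale, which is counts per kilobase of transcript scaled to the same total in each library. On that scale Fos was the highest member in 6 of 6 libraries, at 4216 to 6430, and ranked between 11 and 20 among all genes. Egr1 followed at 2723 to 4084 and Fosb at 2139 to 4862. Per length, Fosb was above Egr1 in the 3 negative libraries and below it in the 3 positive ones, a pattern chosen after its values were seen. The genes were nearly tied in negative library 2 (2872 against 2799), negative library 3 (3829 against 3770) and positive library 1 (4057 against 4084). The order also depends on the gene lengths: in CPM, Fosb was above Egr1 in positive library 1 as well (6365 against 5212).

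Jun and Junb came next, at 1450 to 2810 and 1185 to 2997 on the per-length scale, and their ranges overlapped almost entirely, with Junb above Jun in negative library 1 alone. Atf3 lay at 568 to 1885 and Jund at 347 to 1028, with Atf3 above Jund in 5 of 6 libraries. Maff, at 195 to 475, was above Fosl2, at 140 to 319, in each library. Fosl1 was far below the rest, at 6.47 to 10.5 on the per-length scale and with 74 to 638 counts per library. The other members ranked among the 1135 highest genes of each library, and Fosl1 between 7956 and 9555.

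**Figure D1:**
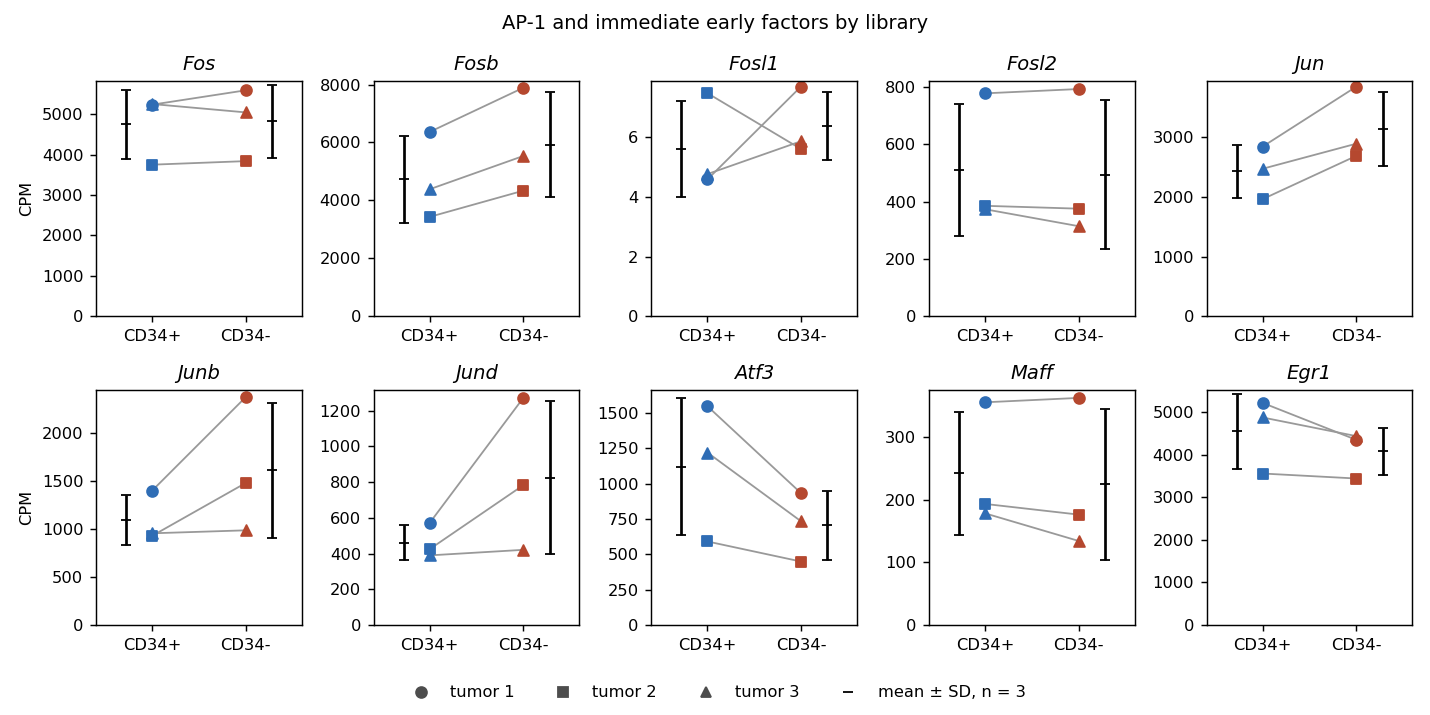
Normalized level (CPM, linear axis from 0) of each of the 10 genes in CD34 positive (blue) and CD34 negative (red) CAFs, with lines joining the 2 fractions of a tumor and bars giving the mean ± SD of 3 libraries. The groups overlap for each gene, while the lines rise toward CD34 negative in 3 of 3 tumors for Fosb, Jun, Junb and Jund and fall for Atf3 and Egr1.

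In the comparison of fractions, the 3 JUN genes and Fosb lay higher in CD34 negative CAFs in each tumor, Atf3 and Egr1 lay lower, and Fos, Fosl1, Fosl2 and Maff had no common direction. In the limma-voom fit without a term for the tumor, 0 of the 10 genes had an adjusted p under 0.05, where 0.121% of all 14855 tested genes did. None of the 10 reached an unadjusted p under 0.05 in that fit, where 2128 of the 14855 tested genes did. Without the block, edgeR and DESeq2 also called 0 of the 10, where they called 9 and 698 of all tested genes. The levels of the 2 groups overlapped for each of the 10 genes, while 20.4% of tested genes did not overlap between groups. In these bulk samples, fewer cells of a type that expresses a gene and less RNA per cell cannot be told apart.

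Both fractions of a pair came from 1 tumor, and adding the tumor to the model as a block gave tighter errors. It called 2 of the 10 genes in limma-voom, Jund higher and Atf3 lower in CD34 negative CAFs, against 8.57% of all tested genes and 12.5% of the 9174 tested genes with a symbol and a mean log2 CPM of at least 3. A fit with the tumor as a random effect in limma-voom called 0 of the 10 and 703 of all tested genes. DESeq2 with the block called Jund and Atf3, where it called 11.7% of tested genes. The edgeR quasi-likelihood test with the block called 0, where it called 3.87% of tested genes. In that test, 4 of the 10 and 2903 of all 14855 tested genes had an unadjusted p under 0.05. The sign was the same in 3 tumors for 6 of the 10 genes, and for 46.3% of tested genes. The median log2 fold change over the 10 genes was 0.02 without and 0.01 with the block, beside -0.03 and -0.01 over all tested genes.

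**Figure D2:**
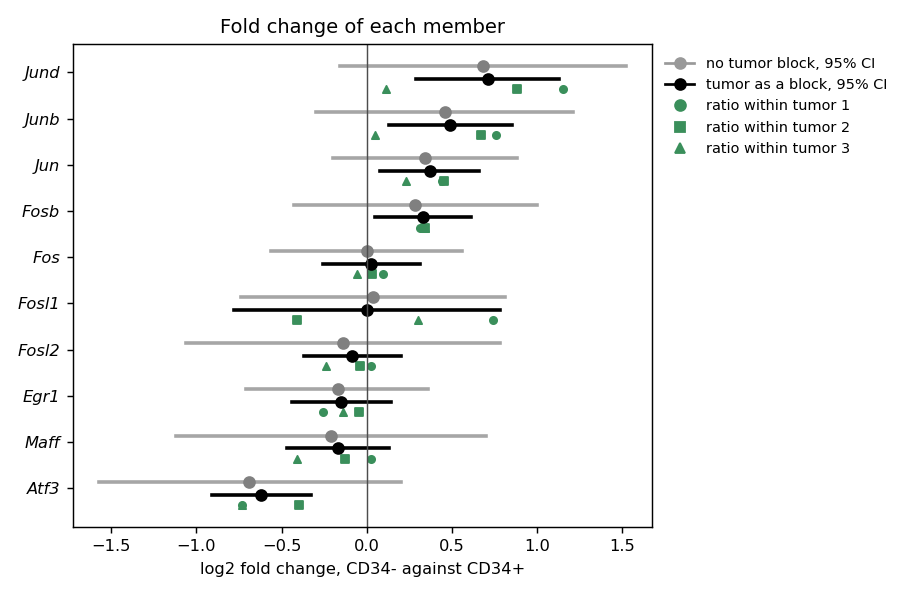
Log2 fold change of CD34 negative against CD34 positive CAFs for each gene, without (gray) and with (black) the tumor as a block in limma-voom, with 95% confidence intervals, and the ratio within each tumor (green). With the block, the interval lies above 0 for Jund, Junb, Jun and Fosb and below 0 for Atf3, and the adjusted p was under 0.05 for Jund and Atf3.

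Among the FOS genes, Fos (gene 14281, chromosome 12, 85473890 to 85477274 of GRCm38.p6), the classical partner of Jun, was at the same level in both fractions. It measured 5590, 3838 and 5044 CPM in negative libraries 1, 2 and 3 and 5234, 3750 and 5251 CPM in the positive libraries. Tumor 2 was lowest in both fractions, and within a tumor the fractions differed by at most 0.095 on the log2 scale. Its log2 fold change with the block was 0.023 ± 0.13 (SE), with a 95% interval of -0.26 to 0.31 and an adjusted p of 0.939 in limma-voom.

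Fosb (gene 14282, chromosome 7, 19302696 to 19310118), which is closely related to Fos, was at 7889, 4336 and 5534 CPM in the negative and 6365, 3432 and 4386 CPM in the positive libraries. Its ratio within a tumor was nearly constant, at 0.31, 0.34 and 0.34 on the log2 scale, while the levels overlapped between groups because tumors differed more than fractions did. The log2 fold change was 0.28 ± 0.31 (SE; limma-voom adjusted p = 0.718) without and 0.33 ± 0.13 (adjusted p = 0.152) with the block, so it did not pass the threshold in either fit.

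Fosl2 (gene 14284, chromosome 5, 32136472 to 32157840), a FOS protein without the strong activation domain of Fos, was at 792, 375 and 314 CPM in the negative and 777, 385 and 373 CPM in the positive libraries. Tumor 1 was the high one in both fractions. Its log2 fold change with the block was -0.09 ± 0.12 (SE; limma-voom adjusted p = 0.752). Fosl1 (gene 14283, chromosome 19, 5447698 to 5455938), the other FOS protein of this kind, was at 7.69, 5.6 and 5.86 CPM in the negative and 4.58, 7.47 and 4.76 CPM in the positive libraries. The tumors went in different directions, and its interval with the block, -0.78 to 0.78, was the widest of the 10. Fosl1 overlaps Ccdc85b, which had 4695 counts against 1745 for Fosl1, and since the use of strand in counting was not stated, reads of the 2 genes may not be fully separated.

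All 3 JUN genes lay higher in CD34 negative CAFs in each tumor, with Jund furthest. Jund (gene 16478, chromosome 8, 70697739 to 70700616), the JUN protein that is usually expressed steadily in unstimulated cells, was at 1272, 783 and 421 CPM in the negative and 572, 425 and 390 CPM in the positive libraries. Negative libraries 1 and 2 were above all positive ones, and negative library 3 lay within their range. The ratio within a tumor was 1.15, 0.88 and 0.11 on the log2 scale. The log2 fold change was 0.68 ± 0.37 (SE; limma-voom adjusted p = 0.444) without the block and 0.71 ± 0.19 with it, 1.64-fold higher (95% interval of the log2 value 0.29 to 1.13, adjusted p = 0.0479). That call rests on the tool and the tumors: DESeq2 with the block gave an adjusted p of 0.0121 and edgeR 0.140, limma-voom with the tumor as a random effect gave 0.173, and limma-voom with the block gave 0.130 without tumor 1, 0.127 without tumor 2 and 0.000992 without tumor 3, where the log2 fold change was 1.00. Over its 23 alternatives the adjusted p ranged from 0.000992 to 0.845.

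Junb (gene 16477, chromosome 8, 84976909 to 84978748), which can restrain Jun activity, also differed least between fractions in tumor 3. It measured 2370, 1477 and 985 CPM in the negative and 1397, 927 and 954 CPM in the positive libraries. The ratio within a tumor was 0.76 in tumor 1 and 0.67 in tumor 2 but 0.05 in tumor 3. Negative library 3 is the one that stood apart, and whether that bears on the Junb ratio was not tested. The log2 fold change was 0.46 ± 0.33 (SE; limma-voom adjusted p = 0.567) without and 0.49 ± 0.16 (adjusted p = 0.1) with the block. Without tumor 3, the fit with the block gave 0.70 and an adjusted p of 0.00618, the lowest over its 23 alternatives, which reached up to 0.891.

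Jun (gene 16476, chromosome 4, 95049036 to 95052222), the main activating JUN protein, was at 3849, 2689 and 2893 CPM in the negative and 2845, 1964 and 2473 CPM in the positive libraries. Positive library 1 lay above negative library 2, so the groups overlapped. Its ratio within a tumor was 0.44, 0.45 and 0.23 on the log2 scale. The log2 fold change was 0.34 ± 0.24 (SE; limma-voom adjusted p = 0.543) without and 0.37 ± 0.13 (adjusted p = 0.115) with the block, with an interval of 0.08 to 0.66 in the latter.

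Atf3 (gene 11910, chromosome 1, 191170296 to 191183333), a stress-induced ATF protein that acts mostly as a repressor, went the other way. It measured 933, 449 and 734 CPM in the negative and 1548, 591 and 1220 CPM in the positive libraries. The positive library was the higher one in 3 of 3 tumors, at -0.73, -0.40 and -0.73 on the log2 scale of negative against positive, while both libraries of tumor 2 were low. The log2 fold change was -0.69 ± 0.39 (SE; limma-voom adjusted p = 0.46) without the block and -0.62 ± 0.13 with it, 1.54-fold lower in CD34 negative CAFs (95% interval -0.91 to -0.33, adjusted p = 0.0192). DESeq2 with the block gave an adjusted p of 0.000315 and edgeR 0.081, and limma-voom with the tumor as a random effect gave 0.178. Leaving out tumor 1, 2 or 3 from the limma-voom fit with the block gave -0.56, -0.74 and -0.58, with adjusted p of 0.0449, 0.0369 and 0.0218, so each of these fits called Atf3. Over its 23 alternatives the adjusted p ranged from 0.000315 to 0.726.

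Maff (gene 17133, chromosome 15, 79346621 to 79359078) was at 362, 176 and 134 CPM in the negative and 355, 193 and 178 CPM in the positive libraries. As for Fosl2, tumor 1 was high in both fractions and the fractions of a tumor were close. Its log2 fold change with the block was -0.17 ± 0.13 (SE; limma-voom adjusted p = 0.51).

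Egr1 (gene 13653, chromosome 18, 34861207 to 34864956), which is induced by ERK signaling through serum response factor, was at 4345, 3438 and 4433 CPM in the negative and 5212, 3555 and 4870 CPM in the positive libraries. The positive library was the higher one in each tumor, by little. Its log2 fold change with the block was -0.15 ± 0.13 (SE; limma-voom adjusted p = 0.552), with an interval of -0.44 to 0.14.

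Because FOS and JUN proteins pair, the makeup of each family was also compared, on the per-length scale. FOS mRNA exceeded JUN mRNA in every library. The sum over the FOS genes was 11401, 7626 and 10275 in the negative and 10401, 6519 and 9576 in the positive libraries, and that over the JUN genes was 6835, 4798 and 4153 against 4455, 2982 and 3665. The ratio of FOS to JUN was thus 1.67, 1.59 and 2.47 in the negative and 2.33, 2.19 and 2.61 in the positive libraries, lower in the negative library of each tumor, with overlap through negative library 3. On the log2 scale the ratio of JUN to FOS was 0.34 higher in CD34 negative CAFs (two-sided exact permutation test p = 0.3, 3 against 3 libraries, 1 of 8 ratios tested).

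Fos and Fosb made up nearly all of the FOS mRNA. Fos took 54.5%, 60.1% and 61.3% of the family in the negative and 57.9%, 64.7% and 67.1% in the positive libraries, and Fosb took 42.6%, 37.7% and 37.3% against 39.0%, 32.8% and 31.1%. Fosb thus held 3.64, 4.85 and 6.19 percentage points more in the negative library of tumors 1, 2 and 3, although the groups overlapped (mean difference 4.89 points, two-sided exact permutation test p = 0.3). Fosl2 took 1.36% to 3.06% and Fosl1 at most 0.158%.

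In the JUN family, Jund took 15.0%, 14.2% and 9.20% of the mRNA in the negative and 10.7%, 11.6% and 9.48% in the positive libraries. Its share was larger in the negative fraction of tumors 1 and 2 and not of tumor 3 (mean difference 2.19 points, two-sided exact permutation test p = 0.4). Jun took 41.1%, 44.0% and 57.1% against 48.2%, 48.6% and 54.3%, and Junb 43.8%, 41.8% and 33.7% against 41.0%, 39.7% and 36.3%. Tumor 3 had the largest share of Jun in both fractions. Adjusted over the 7 shares, the exact permutation p was at least 0.933 for each gene.

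**Figure D3:**
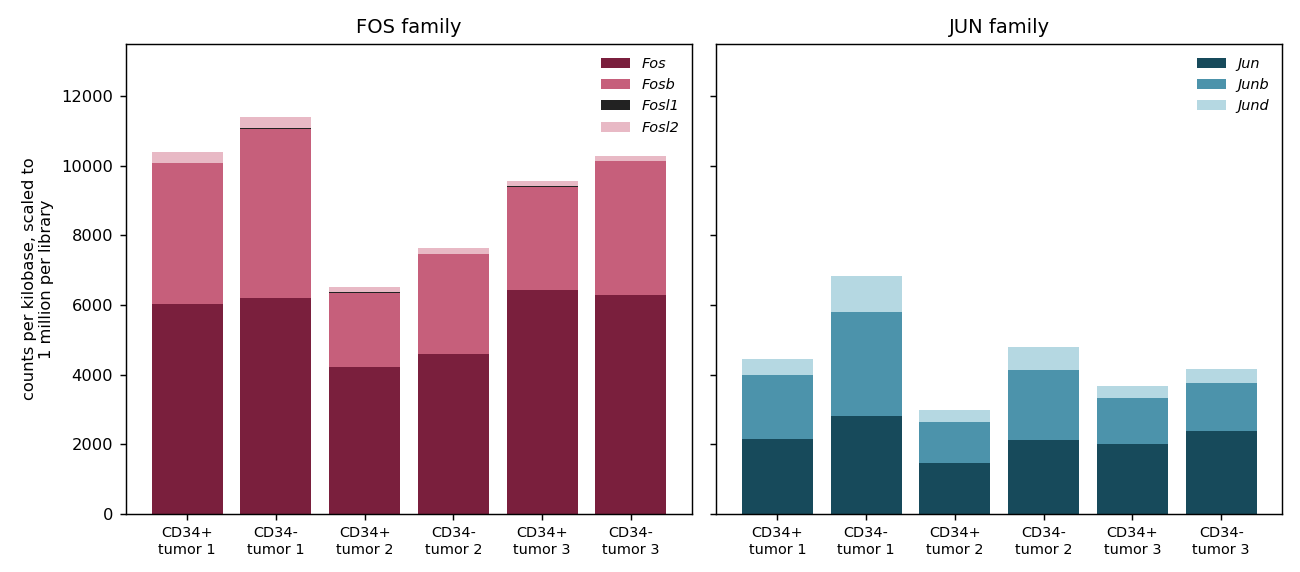
Per-length level (counts per kilobase scaled to the same total in each library, from 0) of the FOS genes (left) and the JUN genes (right), stacked by gene, for the 6 libraries ordered by tumor. In each tumor the JUN bar is taller in the CD34 negative library, 6835 against 4455 in tumor 1, 4798 against 2982 in tumor 2 and 4153 against 3665 in tumor 3.

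Ratios of 2 genes within a library do not depend on library scaling, and 8 of them were compared. Jun relative to Fos separated the groups, at -1.15, -1.12 and -1.41 on the log2 scale in the negative and -1.49, -1.54 and -1.69 in the positive libraries (difference 0.35). Egr1 relative to Fos did so in the other direction, at -0.92, -0.71 and -0.74 against -0.56, -0.63 and -0.66 (difference -0.17). Both reached p = 0.1 in a two-sided exact permutation test, which is the smallest value that the 20 unpaired splits of 3 against 3 libraries allow, so none of the 8 can pass a threshold of 0.05 in this test, which does not use the pairing by tumor, and the Benjamini-Hochberg adjusted value over the 8 exact tests was 0.3 for each. Atf3 relative to Jund, the pair at the 2 ends of the comparison, differed by -1.34, with -1.88, -1.28 and -0.84 in tumors 1, 2 and 3, and overlapped through negative library 3.

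The term for the tumor of origin took a larger share of the spread than that for the fraction for each of the 10 genes. Of the variance of log2 CPM over the 6 libraries, the tumor took 98.2% for Fosl2, 97.9% for Fos, 94.7% for Maff, 84.5% for Egr1, 82.9% for Fosb and 72.0% for Atf3. The share was lower for the JUN genes, at 62.7% for Junb, 55.5% for Jun and 52.1% for Jund, where the fraction took 26.4%, 41.3% and 34.6%. For the low-count Fosl1 the tumor took 17.4% and the fraction 13.3%. The median over the 10 genes was 77.4% for the tumor and 15.2% for the fraction, beside 47.0% and 23% over the 9174 tested genes with a symbol and a mean log2 CPM of at least 3. These shares are a description, and a term for 3 tumors takes up more of the variance by its construction than a term for 2 fractions. The order of the 2 shares therefore does not rank tumor over fraction, and they lay closest for Fosl1, Jun and Jund.

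**Figure D4:**
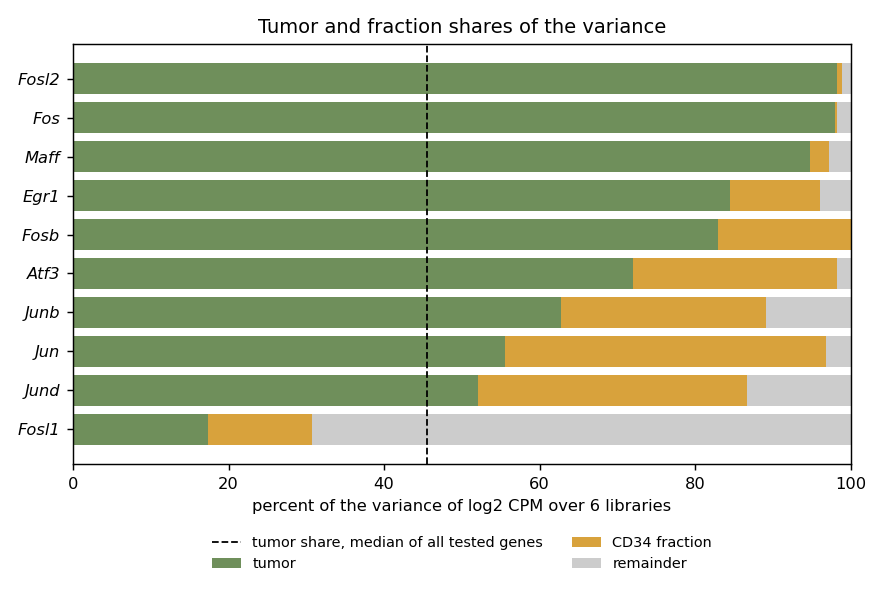
Share of the variance of log2 CPM over the 6 libraries taken by tumor (green), by CD34 fraction (orange) and by the remainder (gray), in percent, for each gene. The dashed line is the median tumor share over all tested genes, 45.5%, and 9 of the 10 genes lie above it.

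A test between the tumors, added after the data were seen, used both fractions of each tumor with the fraction in the model. In this limma-voom F test, 4 of the 10 genes passed an adjusted p of 0.05, against 4.03% of all tested genes and 6.02% of the more highly expressed ones described above. Fosl2 was lower by 1.05 in tumor 2 and by 1.19 in tumor 3 than in tumor 1 on the log2 scale (adjusted p = 0.0064), and Maff by 0.96 and 1.22 (adjusted p = 0.00858). Atf3 was lower by 1.22 in tumor 2 and by 0.35 in tumor 3 (adjusted p = 0.00858), and Fosb by 0.88 and 0.52 (adjusted p = 0.033). Leaving out each library in turn called between 4 and 7 of the 10, with Fosl2 and Maff among them each time. Atf3 was lost without positive library 2, and Fosb without negative or positive library 2. Junb and Jund did not pass with all libraries (adjusted p = 0.065 and 0.0697 in the same F test). They were called in each leave-out fit except the one without negative library 1. The count over all genes moved more: it was 598 with all libraries, 2132 without negative library 3 and 5180 of 15409 without positive library 3, where 7 of the 10 were called, and between 686 and 978 without any other library.

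The same test called 10 of 32 other immediate early and primary response genes. Of these, 9 were lower in tumors 2 and 3 than in tumor 1: Egr2, Ier5, Nr4a3, Zfp36, Btg2, Gadd45g, Ppp1r15a, Sgk1 and Tiparp, with Tiparp furthest at -1.34 and -1.77. Ptgs2, which encodes the prostaglandin synthase COX-2, was higher in tumors 2 and 3, by 0.90 and 0.59. Of 11 heat shock genes, the limma-voom F test called 0. In it, 7 of the 11 had an unadjusted p under 0.05, as did 3238 of all 14855 tested genes. A tumor here stands for the animal, its dissociation and its sort together, which cannot be told apart.

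For each gene, the other genes with the most similar profiles over the 6 libraries were identified by the root mean square (RMS) difference of centered log2 CPM. Fosl2 and Maff were each other's closest member, at 0.0711, and shared Dcun1d3 (0.113 and 0.105) and Islr (0.121 and 0.115) as the closest other genes. Zfp36l1, an mRNA decay factor for AU-rich transcripts, came next for Fosl2, at 0.13, and Zfp704 for Maff, at 0.156. Fos and Egr1 were each other's closest member, at 0.112, while Rbm33 and Bcor lay nearer to Fos, at 0.0385 and 0.0466, and Stag2, Zfp622 and Atf7 nearest to Egr1, at 0.0328, 0.0599 and 0.0633. Junb and Jund were paired at 0.163 and shared Podxl2. Their nearest genes were Ptger1 (0.109) and Rasa1 (0.111) for Junb and Tbx3 (0.106) and Eva1b (0.144) for Jund.

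Jun and Fosb paired at 0.156. Zdhhc1, Ephb3 and Tns2 were nearest to Jun, at 0.0405 to 0.0593, and Mxd1, Mul1 and Nbl1 to Fosb, at 0.0675 to 0.0987. Atf3 and Fosl1 lay furthest from the other members. The closest member was Egr1 for Atf3, at 0.4, and Jun for Fosl1, at 0.385. The nearest other genes to Atf3 were Clmn, Zfp521 and Olfml1 at 0.144 to 0.162. Fosl1 was nearest to Plod1, Slc35b2 and B4galt2, at 0.127 to 0.148. The profiles share the 6 libraries and their depths, and these values are a description.

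The wider pathway was described with lists. Without the block, limma-voom called 0 of the 98 tested genes of the 6 lists below, edgeR 0 and DESeq2 8. Over all 14855 tested genes these fits called 18, 9 and 698. In limma-voom, 16 of the 98 list genes and 2128 of all tested genes had an unadjusted p under 0.05. The counts that follow have the tumor as a block. They are to be read beside the 8.57% of all tested genes and the 12.5% of those with a symbol and a mean log2 CPM of at least 3. Of 10 tested partners from the AP-1 and Maf families, 2 were higher and 0 lower in CD34 negative CAFs. Mafk, a small Maf protein like Maff, was one of those higher, at 283, 154 and 131 CPM in the negative and 190, 85.0 and 71.1 CPM in the positive libraries (log2 fold change 0.77, limma-voom adjusted p = 0.008). The other small Maf genes did not pass in the same fit. Their log2 fold changes were -0.17 for Maff (limma-voom adjusted p = 0.51) and -0.01 for Mafg (adjusted p = 0.986). Batf3 did not pass the filter. Of the 10 partners, edgeR with the block called 1 higher and DESeq2 3 higher, and both called 0 lower.

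Of the 32 other immediate early and primary response genes, 6 were higher and 2 lower with the block, and the median log2 fold change was 0.19. Ccn2, a matricellular protein that is a classical target of YAP and TGF-β signaling, was highest among those called, at 2379, 3378 and 2486 CPM in the negative and 1555, 1711 and 782 CPM in the positive libraries (log2 fold change 1.09, limma-voom adjusted p = 0.0087). Its paralog Ccn1 had a log2 fold change of -0.10 and did not pass. The others higher were Plk3 (0.89), Egr2 (0.52), Csrnp1 (0.51), Ier2 (0.49) and Gadd45b (0.49), with adjusted p of 0.00875 to 0.0459 in the same fit. Of the same zinc finger family as Egr2, Egr1 (-0.15), Egr3 (0.57) and Egr4 (-1.0) did not pass.

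Myc, the growth-promoting transcription factor, was lower: it was at 278, 252 and 189 CPM in the negative and 488, 440 and 437 CPM in the positive libraries, with no overlap (log2 fold change -0.94, limma-voom adjusted p = 0.0906 without and 0.0038 with the block). Tiparp, an ADP-ribosyltransferase induced by the aryl hydrocarbon receptor, was also lower (-0.79, adjusted p = 0.00707). Of this list, edgeR with the block called 1 higher and 2 lower and DESeq2 9 higher and 2 lower.

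Factors that act upstream of these genes were described next. Of 24 kinases and transcription factors of the ERK, JNK, p38 and serum response pathways, 0 were higher and 1 was lower with the block. That was Rps6ka3, the kinase RSK2, at 26.7, 32.1 and 24.2 CPM in the negative and 49.8, 48.0 and 68.8 CPM in the positive libraries (log2 fold change -0.97, limma-voom adjusted p = 0.017). Serum response factor, Srf, had a log2 fold change of 0.47 that did not pass (adjusted p = 0.097 in the same fit). Of the 24, edgeR with the block called 0, and DESeq2 0 higher and 1 lower. None of 7 factors that shut off immediate early expression, such as Zfp36, Nab1 and Nab2, was called, with 1 of them at an unadjusted p under 0.05 in limma-voom and 0 in edgeR and DESeq2, all with the block.

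Of 15 textbook AP-1 targets, 3 were higher and 2 lower with the block. Spp1, which encodes osteopontin, was at 365, 1175 and 274 CPM in the negative and 86.9, 249 and 28.8 CPM in the positive libraries (log2 fold change 2.48, limma-voom adjusted p = 0.000381). Tgfb1 (1.45, adjusted p = 0.00167) and the collagenase gene Mmp13 (1.15, adjusted p = 0.0255) were also higher, and the groups did not overlap for any of these 3. The cytokine Il6 (-0.99, adjusted p = 0.0123) and the hyaluronan receptor Cd44 (-0.81, adjusted p = 0.00853) were lower. The groups overlapped for Il6 and did not for Cd44. Over all tested genes, 20.4% did not overlap between groups. Targets such as Mmp3, Plau, Hmox1 and Hbegf did not pass. The targets therefore went in both directions, with a median of 0.09. Of the 15, edgeR with the block called 2 higher and 1 lower, and DESeq2 4 higher and 2 lower.

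Heat shock genes, which stress and dissociation can induce together with immediate early genes, were measured beside them. Of 11, 3 were higher and 1 lower with the block in limma-voom and in DESeq2, and 3 higher and 0 lower in edgeR. The near-identical copies Hspa1a and Hspa1b, which encode the inducible HSP70 and whose reads may be split between them, were at 240, 403 and 451 CPM and 430, 714 and 898 CPM in the negative and 118, 181 and 141 CPM and 220, 327 and 233 CPM in the positive libraries (log2 fold changes 1.30 and 1.35, limma-voom adjusted p = 0.00164 and 0.00319). Hspb1 was higher (0.66) and the mitochondrial chaperone Hspd1 lower (-0.59), while Hspa8, Dnajb1, Hsp90aa1 and Hsp90ab1 lay within 0.1 of 0 on the log2 scale. The ratios of Hspa1a within tumors 1, 2 and 3 were 1.03, 1.16 and 1.68 on the log2 scale, largest in tumor 3, where that of Jund was smallest. The part of these differences in the results on the AP-1 genes was not tested.

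**Figure D5:**
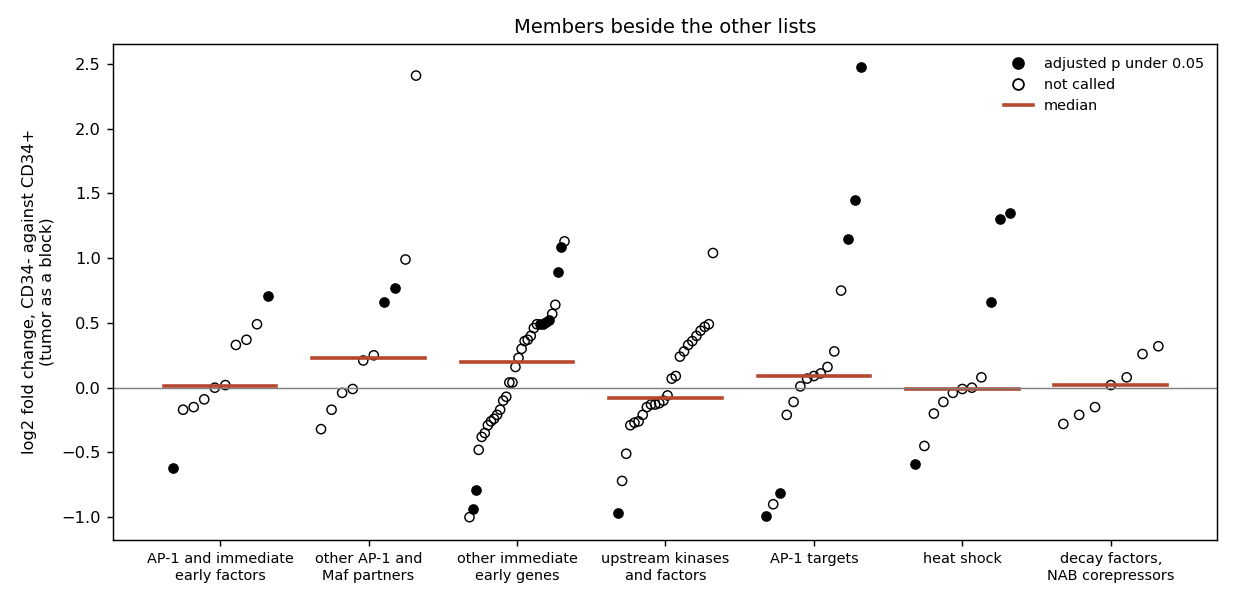
Log2 fold change of CD34 negative against CD34 positive CAFs with the tumor as a block in limma-voom, for the 10 AP-1 and immediate early factors and the 6 lists, 1 point per gene ordered within its list, filled where the adjusted p was under 0.05, with the median as a red line. The medians lie between -0.08 and 0.23, and filled points lie on both sides of 0 for the 10 factors and in the immediate early, target and heat shock lists.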

How the data were processed

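RNA from 6 sorted CAF libraries (3 tumors, 2 fractions) was made into TruSeq RNA v2 libraries and sequenced on a NextSeq 500. The authors aligned reads to GRCm38 (mm10) and counted them per NCBI gene with featureCounts of Rsubread. Values were deposited as raw counts, 1 column per library. The use of strand and the handling of reads with several matches were not given in the sources used here. Groups and tumor numbers came from the sample titles.

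The main fit used the steps that the published methods name, which state no term for the tumor; whether the authors' model had one was not given in the sources used here. Genes without a symbol, which the authors removed, stayed in this fit, and an alternative dropped them. Lowly expressed genes were filtered by filterByExpr (minimum count 10), TMM factors were computed, and limma-voom compared the groups with no term for the tumor, two-sided, with Benjamini-Hochberg adjustment over the 14855 tested genes. All 10 AP-1 and immediate early factors passed the filter. Positive log2 values mean higher in CD34 negative CAFs. Per-length levels used the gene lengths in the count table. R 4.3.3, limma 3.58.1, edgeR 4.0.16 and DESeq2 1.42.0 were used, and the fits were tested on simulated counts. Gene positions and promoter windows are from RefSeq on GRCm38.p6.

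The tumor pairs the libraries, since both fractions were sorted from 1 tumor: over 14855 genes, their deviations from their group's mean correlated at 0.373, 0.35 and 0.219 in tumors 1, 2 and 3. The same model with a tumor block was therefore run beside the main one, and another treated the tumor as a random effect.

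The 10 genes and the lists were chosen with earlier results of these data known. Named genes are the 10, the genes of the lists that passed with or without the block, and the 3 nearest profiles per gene (mean log2 CPM of at least 3), of which 2 enter the counts or the ranking but are not reported here. Ccn1, Srf and the list genes named as not passing were added after their values were seen. The test between tumors and its fits without each library were added after seeing the data. Alternatives covered normalization, filter, annotation, tool, sample weights, block, and each library and tumor. Exact permutation tests of family shares and ratios used the 20 splits of 6 libraries and did not use the pairing.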

Additional observations from a re-analysis of the deposited data

How the results depend on the processing

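With the replicate block (the tumor), limma-voom called 2 of the 10 AP-1 and immediate early factors, DESeq2 2 and edgeR 0, against 0 without it. Leaving out each tumor from the fit with the block called 1, 1 and 3. The fit with the tumor as a random effect called 0, with adjusted p of 0.173 for Jund and 0.178 for Atf3. No fit without a term for the tumor called any of the 10, whatever the normalization, filter, tool, weights or library left out. Over all genes, the main fit called 18 and the others 9 (edgeR), 698 (DESeq2), 161 (sample quality weights), 703 (tumor as a random effect), 1273 (block), 575 (block, edgeR), 1733 (block, DESeq2) and between 0 and 86 when a library or tumor was left out. The block without tumor 1, 2 and 3 gave 1134, 851 and 2019. Of the genes of the 6 lists, 0 were called in the main fit, 8 with DESeq2, 1 with weights, 9 with the random effect, 20 with the block, 10 and 25 with the block in edgeR and DESeq2, 0 to 2 with a library or tumor left out, and 19, 15 and 25 with the block without tumor 1, 2 and 3. The cause of these changes was not tested.

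Signs changed where the fold change was close to 0. Fos, at -0.0011, came to 0.026 without the filter, 0.024 with edgeR, 0.012 with DESeq2 (also with the block), 0.023 with limma-trend, 0.023 with the block (also in edgeR), 0.0076 with the random effect, and -0.15 to 0.15 with a library or tumor left out (block without tumor 2 and 3: 0.0085 and 0.05). Fosl1, at 0.036, came to -5.5e-05 with the block, -0.18 and -0.047 with the block without tumor 1 and 3, and -0.2 to 0.54 with a library or tumor left out. Fosl2 ranged from -0.53 to 0.25 and Maff from -0.61 to 0.13 in those fits. Without negative library 1, Jund came to 0.31, Junb to 0.14 and Fosb to 0.06, and without negative library 3 Jund came to 1.10 and Junb to 0.77. Fosb ranged up to 0.55 without positive library 1, Jun from 0.19 to 0.48 over all its alternatives, Egr1 from -0.33 to -0.059, and Atf3 from -1.05 without positive library 2 to -0.38 without positive library 1. The tumor comparison called 4 to 7 of the 10. Differences in family shares moved by less than 1 SD pooled over both groups, but the JUN shares rest on single libraries: without negative library 1 and 3 the difference came to 0.183 and -7.82 points for Jun (main -2.97), -1.25 and 3.8 for Junb (0.785), and 1.11 and 4.01 for Jund (2.19), and Fosb (4.89) ranged from 3.2 to 7.25. With 3 tumors, smaller differences in the low-count Fosl1 were not detectable.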
